A study of Homo sapiens with 42 samples.

Results

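The genes that build ribosomes, and those that encode the subunits of RNA polymerases I, II and III, were followed in MiaPaCa-2 and PANC-1 cells given a statin. They were chosen by gene symbol alone: names beginning POLR1 to POLR3, NOP, NOL, UTP or RRP followed by the usual letter or number, and a few single names such as NCL, DKC1, BOP1 and IMP3. The rule found 65 of the 8738 genes in the table. No expression value entered the rule, but the set was chosen with earlier results of these data known. By role, 21 were assigned to the small subunit processome or later 40S assembly, 14 to 60S assembly and 5 to the core of the small nucleolar ribonucleoproteins (snoRNPs). The 21 include RRP7B, which is annotated as a transcribed pseudogene. Of the polymerase subunits, 3 belong to Pol I, 2 to both Pol I and Pol III, 7 to Pol III, 5 to Pol II and 5 to all of these enzymes. The remaining 3 are NCL (nucleolin, an abundant nucleolar RNA-binding protein), NOL3 (an inhibitor of apoptosis that carries a nucleolar name) and NOP56P2 (a pseudogene related to NOP56).

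MiaPaCa-2 and PANC-1 are established human pancreatic carcinoma lines. Each was grown without a statin (control) or with 2 or 20 µM of fluvastatin, lovastatin or simvastatin, which gives 7 groups per line and 14 in all, each labelled with 3 libraries of poly(A) RNA. Statins inhibit HMG-CoA reductase, and simvastatin differs from lovastatin by an added methyl group on the ester side chain, whereas fluvastatin is a synthetic compound built on an indole ring. No source used here states the treatment time or the vehicle. Nor is it said whether replicates came from separate cultures. The p-values therefore set each difference only against the spread between these libraries, pooled over the groups fitted together. In MiaPaCa-2, the third control column and the third lovastatin 20 µM column equalled fixed weighted sums of other columns to within 4.99e-09 on the log2 scale. Both were left out, which leaves 40 libraries, with n = 2 in those groups and n = 3 in the others. Depth is unknown because no counts were used. In each group a lower share of cells expressing a gene and less RNA per cell cannot be told apart. Of 6 epithelial markers, 5 were in the table, and their summed level ran from 737 to 1493 FPKM across libraries. No acinar, islet or endothelial marker was among the 8738 genes. The 3 of 8 fibroblast markers present (COL1A1, COL1A2 and THY1) summed to between 55.5 and 70.7 FPKM in the MiaPaCa-2 controls, 179 to 217 with fluvastatin and 26.0 to 38.8 with simvastatin at 20 µM, and to 152 to 177 in the PANC-1 controls and 61.9 to 138 in its 20 µM groups. The 2 of 6 leukocyte markers present (CD14 and CD68) summed to between 12.3 and 59.9 FPKM in every library. Their part in the results was not tested.

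Ribosomal RNA is made by Pol I, apart from the 5S species, which Pol III transcribes together with tRNAs. The precursor is modified by box C/D snoRNPs (NOP56 and NOP58 in their core) and box H/ACA snoRNPs (DKC1 and NOP10), cleaved within the small subunit processome, and packed into pre-60S and pre-40S particles before export. Growing tumour cells need a high output of this pathway, and many of its genes are known targets of the transcription factor MYC.

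Most of these messenger RNAs fell at 20 µM of every statin but lovastatin in PANC-1, and at 2 µM most fell in MiaPaCa-2. In MiaPaCa-2, 50 of the 65 genes fell with fluvastatin at 20 µM, 40 with lovastatin and 35 with simvastatin, where 32.5%, 30.1% and 33.1% of all 8534 genes tested fell. The numbers that rose were 5, 6 and 9, against 32.9%, 28.8% and 32.2% of all genes. In PANC-1 at 20 µM, 47, 26 and 34 genes fell and 5, 2 and 8 rose with fluvastatin, lovastatin and simvastatin, respectively. Among all 8615 genes tested in that line, 31.0%, 22.4% and 30.2% fell and 32.5%, 23.9% and 29.4% rose. A gene is said here to have risen or fallen when limma, a linear model with moderated variance fitted across all genes, gave a Benjamini-Hochberg adjusted p under 0.05. Differences and standard errors are of log2(FPKM + 1), a scale on which weakly expressed genes change less than their FPKM does.

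At 20 µM the median log2 difference of the 65 genes from control was -0.78 with fluvastatin, -0.60 with lovastatin and -0.43 with simvastatin in MiaPaCa-2. The corresponding medians in PANC-1 were -0.57, -0.31 and -0.28. The median of all genes tested lay between -0.01 and 0.03 in all of these comparisons. At 2 µM the MiaPaCa-2 medians were -0.54, -0.60 and -0.51 for fluvastatin, lovastatin and simvastatin, with 44, 47 and 46 genes lower and 4, 5 and 4 higher. Of all genes, 22.3%, 23.5% and 23.8% fell and 20.9%, 21.9% and 21.7% rose there. In PANC-1 at 2 µM, 1 gene (UTP6) rose with fluvastatin and with lovastatin, 0 were called with simvastatin, and 0 fell. Of all genes tested there, 3.95%, 2.81% and 3.97% were called. At an unadjusted p under 0.05, 3, 3 and 7 of the 65 passed. The share of all genes at that threshold was not computed, so these counts cannot be set against a background. UTP6, a component of the small subunit processome, stood at 89.4, 86.1 and 79.5 FPKM in the PANC-1 controls, 115, 112 and 114 with fluvastatin and 108, 114 and 122 with lovastatin, and neither treated group overlapped the controls. Its rises of 0.42 (SE 0.10, limma adjusted p = 0.0307) and 0.43 (SE 0.10, limma adjusted p = 0.0335) were both lost when any treated library or the second or the third control was left out (smallest 0.37, adjusted p = 0.0990, for fluvastatin and 0.38, adjusted p = 0.147, for lovastatin), and when only these groups were compared. The response to 2 µM was not tested between the lines.

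**Figure D1:**
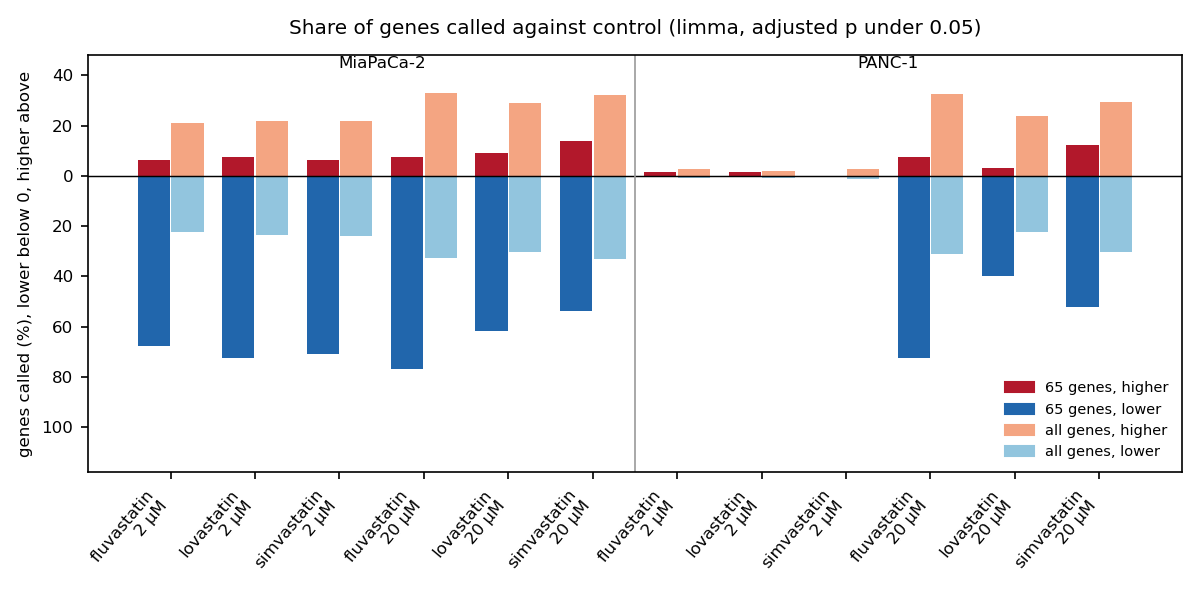
Share of the 65 genes (dark bars) and of all genes tested (pale bars) that limma called higher (above 0) or lower (below 0) than control, in percent, for each statin and dose in MiaPaCa-2 (left) and PANC-1 (right). At 20 µM in both lines, and at 2 µM in MiaPaCa-2, the dark lower bars are longer than the pale ones; at 2 µM in PANC-1 only UTP6 was called.

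The table itself bears on these shares. No source used here gives the rule by which its 8738 genes were selected. In an ordinary analysis of variance (F test, variance not moderated) across the groups of a line, 88.3% of them had p under 0.05 in MiaPaCa-2 and 80.1% in PANC-1. Members of the same complexes, such as fibrillarin and GNL3, are not in the table and were not analysed here, so the counts describe the 65 genes listed and not the complete machinery.

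With all 3 statins at 20 µM, 34 genes fell and 5 rose in MiaPaCa-2, and 19 fell and 1 rose in PANC-1. Of all genes tested, 21.1% fell and 18.6% rose with all 3 in MiaPaCa-2, and 14.9% fell and 16.3% rose in PANC-1. Among all 8411 genes tested in both lines, 10% fell with all 3 statins in each. Of the 65 genes, 16 did so: BOP1, LAS1L, NOP2, RRP1B, RRS1 and WDR12 of 60S assembly, NOP56, NOP58 and RRP9 of the snoRNPs, UTP20 of the processome, POLR1E, POLR2D, POLR2E and POLR3K of the polymerases, and NCL and NOP56P2. No gene of the 65 rose with every statin in both lines, where 7.32% of all genes did. None moved with all statins in opposite directions in the lines. Of all genes only 0.487% did, so that count is near the background. Some of these calls rest on single libraries. BOP1 differed by -0.27 (SE 0.10, limma adjusted p = 0.0338) with lovastatin in MiaPaCa-2, which was lost without any 1 of the 4 libraries compared (-0.24, adjusted p = 0.124, without the second lovastatin library). NOP2 with simvastatin in MiaPaCa-2, -0.36 (SE 0.12, limma adjusted p = 0.0188), was lost without the third simvastatin library (-0.28, adjusted p = 0.0802) or either control. NOP56P2 with lovastatin there was lost without the first lovastatin library (-0.75, adjusted p = 0.0586). In PANC-1 with simvastatin, RRP9 (-0.24, SE 0.09, limma adjusted p = 0.0256) was lost without the first simvastatin library or the first or second control (-0.21, adjusted p = 0.0863, without the second control; -0.39, adjusted p = 9.23e-04, once the trend with transcript length described with the statin pairs was removed), and RRS1 (-0.37, SE 0.11, limma adjusted p = 0.00924) without the first or second control (-0.29, adjusted p = 0.0544, without the second). The POLR3K value there, treated with the Pol III genes, was likewise fragile.

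**Figure D2:**
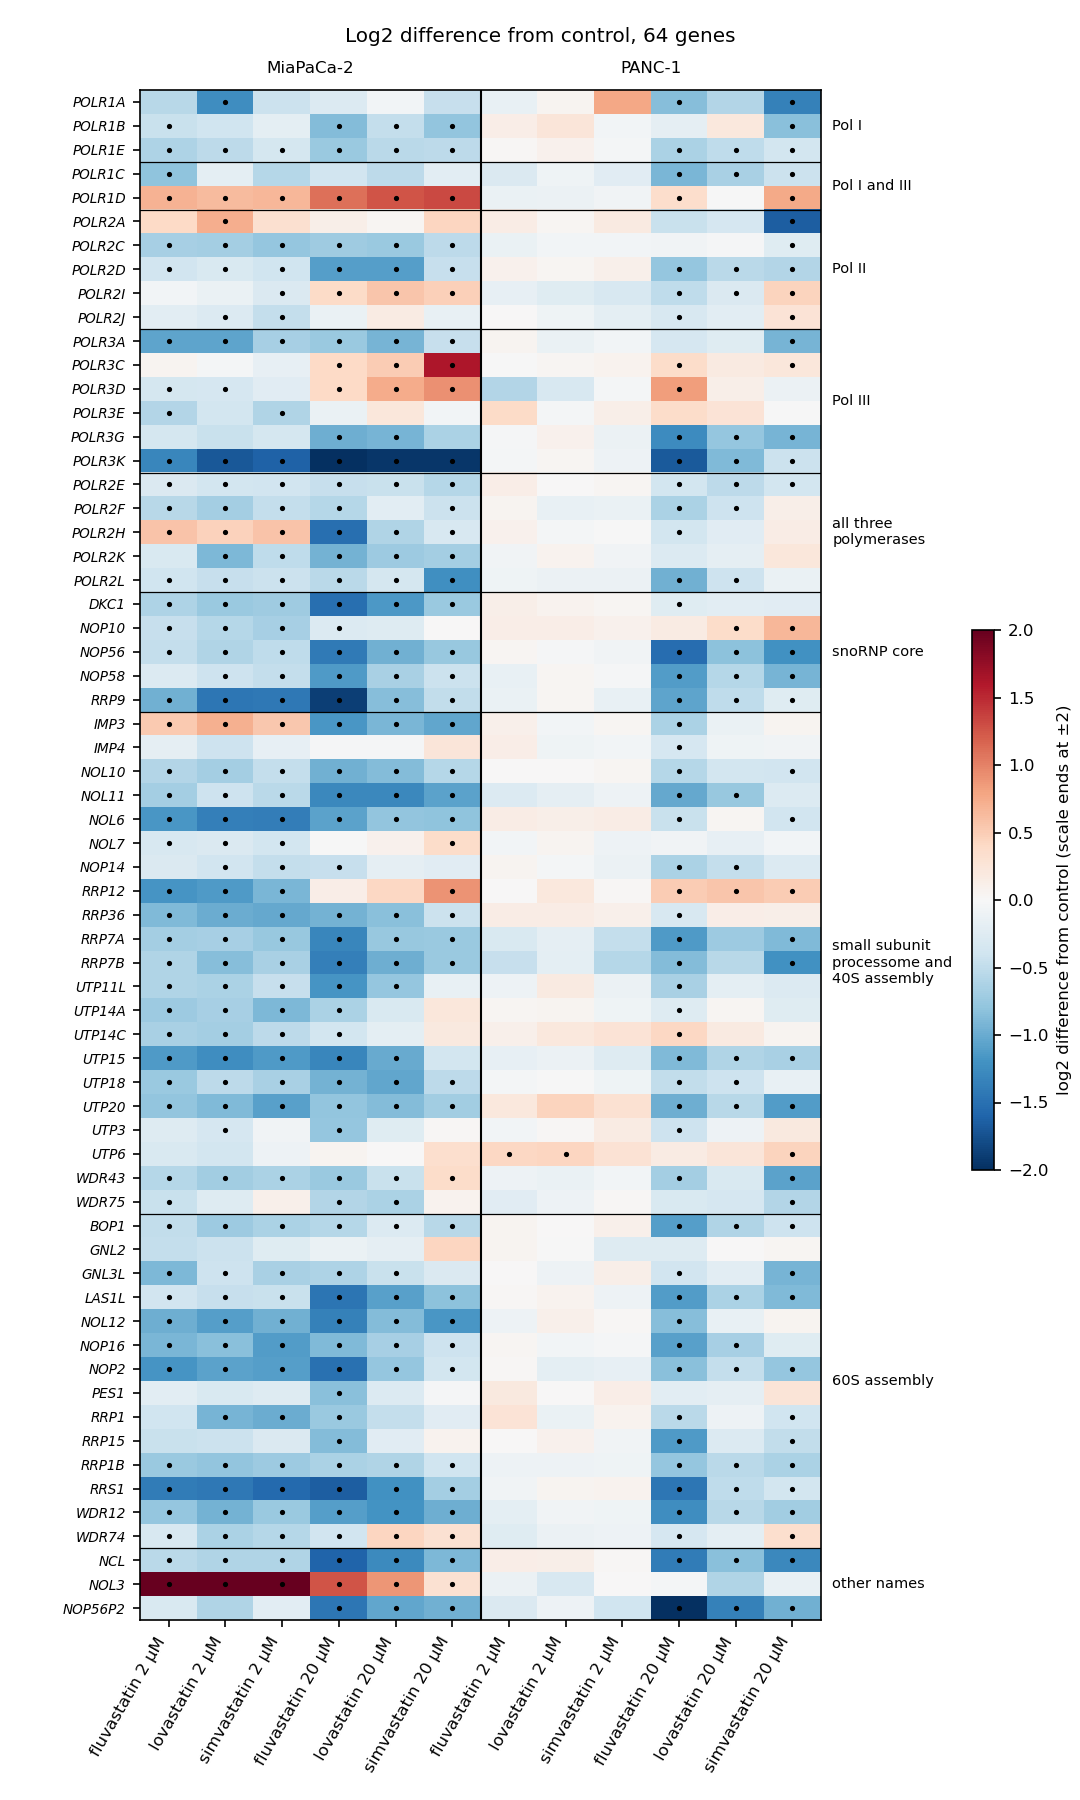
Log2 difference from control (colour, red higher and blue lower, scale ending at 2 in either direction) for 64 of the 65 genes in rows, grouped by role, and the 12 statin and dose groups in columns; dots mark limma calls. Most rows are blue at 20 µM in both lines and at 2 µM in MiaPaCa-2; in MiaPaCa-2, POLR1D and NOL3 are red at both doses and POLR3C and POLR3D at 20 µM.

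NCL had the highest level of the 65 genes in the controls of both lines. Its level was 1343 and 1363 FPKM in the MiaPaCa-2 controls, 442, 460.2 and 439 with fluvastatin at 20 µM, 542 and 574 with lovastatin and 679.7, 754 and 739 with simvastatin. Every treated library lay below both controls, and the statins formed 3 separate bands with fluvastatin lowest. The log2 difference was -1.60 (SE 0.05, limma adjusted p = 8.12e-14) for fluvastatin and -0.90 (SE 0.05, limma adjusted p = 9.16e-11) for simvastatin. In PANC-1 the controls held 1119.8, 1217 and 987 FPKM, fluvastatin 425, 419.7 and 406, lovastatin 621, 587 and 655 and simvastatin 442, 435 and 478. Here lovastatin left the highest level and fluvastatin again the lowest, with no library near the controls. At 2 µM, NCL was at 903, 929 and 957 FPKM with fluvastatin in MiaPaCa-2, a difference of -0.54 (SE 0.05, limma adjusted p = 1.92e-07), whereas in PANC-1 the fluvastatin libraries held 1205, 1193 and 1217 and overlapped the controls.

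Among the snoRNP proteins, 5 of 5 fell with fluvastatin at 20 µM in MiaPaCa-2 and 4 of 5 in PANC-1, where 32.5% and 31.0% of all genes tested fell. NOP56, a core protein of box C/D snoRNPs, stood at 429.8 and 448 FPKM in the MiaPaCa-2 controls and at 181, 158 and 157 with fluvastatin at 20 µM. In PANC-1 it went from 345, 349 and 319.7 in the controls to 116, 115 and 121 with fluvastatin, 191, 186 and 194 with lovastatin and 151, 164 and 122.9 with simvastatin. All treated libraries lay below all controls in either line. The fluvastatin differences were -1.41 (SE 0.06, limma adjusted p = 6.64e-12) in MiaPaCa-2 and -1.52 (SE 0.08, limma adjusted p = 7.68e-12) in PANC-1. Its partner NOP58 moved less, by -1.13 (SE 0.12, limma adjusted p = 5.13e-07) and -1.11 (SE 0.09, limma adjusted p = 1.15e-08) in the same comparisons. The pseudogene NOP56P2 differed by -2.004 (SE 0.15, limma adjusted p = 2.71e-09) with fluvastatin in PANC-1, but its sequence relation to NOP56 makes the assignment of reads between them uncertain.

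RRP9, which binds the U3 snoRNP that guides the first cleavages of the precursor, was at 35.2 and 34.9 FPKM in the MiaPaCa-2 controls. Fluvastatin at 20 µM left 8.72, 9.71 and 7.89, lovastatin 17.8 and 20.4 and simvastatin 23.6, 23.6 and 26.6. The fluvastatin libraries were the lowest of the line. At 2 µM the order differed: lovastatin (10.5, 13.7 and 12.83 FPKM) and simvastatin (12.85, 11.8 and 12.5) left less RRP9 than they did at 20 µM, and no library of the 2 doses overlapped. The change from 2 to 20 µM was 0.59 (SE 0.12, limma adjusted p = 5.94e-04) for lovastatin, 0.94 (SE 0.11, limma adjusted p = 1.23e-06) for simvastatin and -0.92 (SE 0.11, limma adjusted p = 1.81e-06) for fluvastatin.

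DKC1, the pseudouridine synthase of box H/ACA snoRNPs, separated the lines. In MiaPaCa-2 it stood at 211 and 226 FPKM in the controls and 77.7, 80.8 and 70.1 with fluvastatin at 20 µM, with the lovastatin libraries at 94.6 and 101. In PANC-1 the controls held 151, 160.3 and 145 and fluvastatin 143, 126 and 117. The groups were far apart in the first line and nearly touched in the second. The fluvastatin difference was -1.51 (SE 0.08, limma adjusted p = 6.54e-11) in MiaPaCa-2. In PANC-1 it was -0.24 (SE 0.10, limma adjusted p = 0.0456), a call lost when the second or the third fluvastatin library, or the first or second control, was left out (lowest size -0.18, adjusted p = 0.184, without the third fluvastatin library). The response differed between the lines by -1.27 (SE 0.13, limma adjusted p = 7.88e-09). NOP10, of the same snoRNPs, did the opposite in PANC-1: simvastatin at 20 µM gave 307, 312 and 327 FPKM against 196, 223 and 178 in the controls, a rise of 0.67 (SE 0.07, limma adjusted p = 5.57e-07) with no overlap. It was 0.47 (adjusted p = 1.02e-04) with the length trend removed.

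Of the 21 small subunit genes, 17 fell with fluvastatin, 13 with lovastatin and 9 with simvastatin at 20 µM in MiaPaCa-2. In PANC-1, 16, 5 and 8 fell. The shares of all genes tested that fell were 32.5%, 30.1% and 33.1% in MiaPaCa-2 and 31.0%, 22.4% and 30.2% in PANC-1. The lovastatin count in PANC-1 was thus near that share. UTP20, a very large scaffold protein of the processome, was weakly expressed, at 8.83 and 9.53 FPKM in the MiaPaCa-2 controls and 8.66, 8.03 and 7.03 in those of PANC-1. With simvastatin at 20 µM it was at 5.31, 5.63 and 4.92 and 3.74, 3.48 and 2.22, below every control. The differences were -0.70 (SE 0.19, limma adjusted p = 0.00417) and -1.12 (SE 0.13, limma adjusted p = 1.29e-06). UTP20 is long, at 9025 bases, and the PANC-1 simvastatin libraries followed the trend with transcript length described with the statin pairs. Its simvastatin minus lovastatin difference there was -0.57 (limma adjusted p = 0.00279), and -0.25 (adjusted p = 0.163) with that trend removed. NOL11, which takes part in rRNA transcription and early processing, changed by -1.28 (SE 0.16, limma adjusted p = 4.56e-06) in MiaPaCa-2 and -1.02 (SE 0.21, limma adjusted p = 4.57e-04) in PANC-1 with fluvastatin. RRP7A and RRP7B fell by 1.30 and 1.37 with fluvastatin in MiaPaCa-2, but RRP7B is annotated as a transcribed pseudogene of RRP7A and reads may be split between them. UTP14C is likewise a retrocopy of UTP14A. NOL7 fell in MiaPaCa-2 with each statin at 2 µM, with a simvastatin difference of -0.37 (SE 0.09, limma adjusted p = 0.0026), and rose with simvastatin at 20 µM, by 0.36 (SE 0.09, limma adjusted p = 0.00175).

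Some processome genes turned with dose in MiaPaCa-2. IMP3, part of the complex that pairs U3 RNA with the precursor, was at 36.1 and 35.7 FPKM in the controls, rose to 53.7, 50.9 and 51.1 with fluvastatin at 2 µM, and was at 17.1, 15.4 and 14.02 at 20 µM. The 3 levels did not overlap, and lovastatin and simvastatin gave the same order. The differences from control were 0.52 (SE 0.10, limma adjusted p = 5.35e-04) at 2 µM and -1.16 (SE 0.10, limma adjusted p = 3.19e-08) at 20 µM. In PANC-1, IMP3 was at 32.9, 32.6 and 31.2 FPKM in the controls and 19.9, 20.3 and 20.9 with fluvastatin at 20 µM, whereas simvastatin left 33.96, 33.6 and 32.8. The fluvastatin difference was -0.64 (SE 0.07, limma adjusted p = 1.74e-07), while that of simvastatin was 0.05 (SE 0.07, limma adjusted p = 0.514) and did not pass the test.

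RRP12, which acts in the maturation and export of pre-ribosomal particles, turned the other way. MiaPaCa-2 controls held 29.3 and 23.4 FPKM, fluvastatin at 2 µM 10.9, 11.0 and 11.2, and simvastatin 11.5, 10.9 and 19.1 at 2 µM and 48.1, 47.8 and 53.5 at 20 µM. The 2 µM libraries lay below both controls and the simvastatin 20 µM libraries above them. The differences from control were -1.17 (SE 0.21, limma adjusted p = 3.30e-04) for fluvastatin at 2 µM and 0.90 (SE 0.21, limma adjusted p = 0.00131) for simvastatin at 20 µM. In PANC-1, RRP12 was the gene that rose with every statin at 20 µM, by 0.50 (SE 0.12, limma adjusted p = 0.00116), 0.56 (SE 0.12, limma adjusted p = 7.81e-04) and 0.51 (SE 0.12, limma adjusted p = 0.0011) for fluvastatin, lovastatin and simvastatin. WDR43, a WD-repeat protein of the processome, rose with simvastatin at 20 µM in MiaPaCa-2, by 0.37 (SE 0.15, limma adjusted p = 0.0394), and changed by -1.07 (SE 0.18, limma adjusted p = 5.64e-05) in PANC-1. The rise was lost without the first or the third simvastatin library or either control (0.33, adjusted p = 0.165, without the first control). The difference between the lines was 1.44 (SE 0.25, limma adjusted p = 2.18e-05).

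NOL6, a processome protein whose yeast counterpart belongs to the UTP-C module, had one of the lowest mean differences of the 65 genes at 2 µM in MiaPaCa-2, after POLR3K and RRS1. It was at 13.2 and 12.999 FPKM in the controls, 5.02, 4.26 and 3.94 with simvastatin at 2 µM and 6.95, 7.03 and 7.11 at 20 µM. In PANC-1 the simvastatin 2 µM libraries held 21.8, 22.3 and 22.6 against 21.5, 20.5 and 18.0 in the controls. The treated libraries lay far under the controls in the first line and, in PANC-1 at 2 µM, just above them. The MiaPaCa-2 differences were -1.39 (SE 0.15, limma adjusted p = 2.20e-06) at 2 µM and -0.81 (SE 0.15, limma adjusted p = 2.12e-04) at 20 µM. UTP15, which also takes part in rRNA gene transcription, changed by -1.30 (SE 0.20, limma adjusted p = 3.69e-05) with fluvastatin at 20 µM in MiaPaCa-2 and by -0.88 (SE 0.17, limma adjusted p = 2.25e-04) in PANC-1. NOL10, NOP14, UTP3 and UTP11L (the earlier symbol of UTP11), all processome proteins, fell with fluvastatin at 20 µM in both lines, with differences from -1.18 for UTP11L in MiaPaCa-2 to -0.42 for UTP3 in PANC-1. WDR75, a partner of UTP15, was called with fluvastatin and lovastatin in MiaPaCa-2 (-0.59 and -0.63) and with simvastatin in PANC-1 (-0.59).

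**Figure D3:**
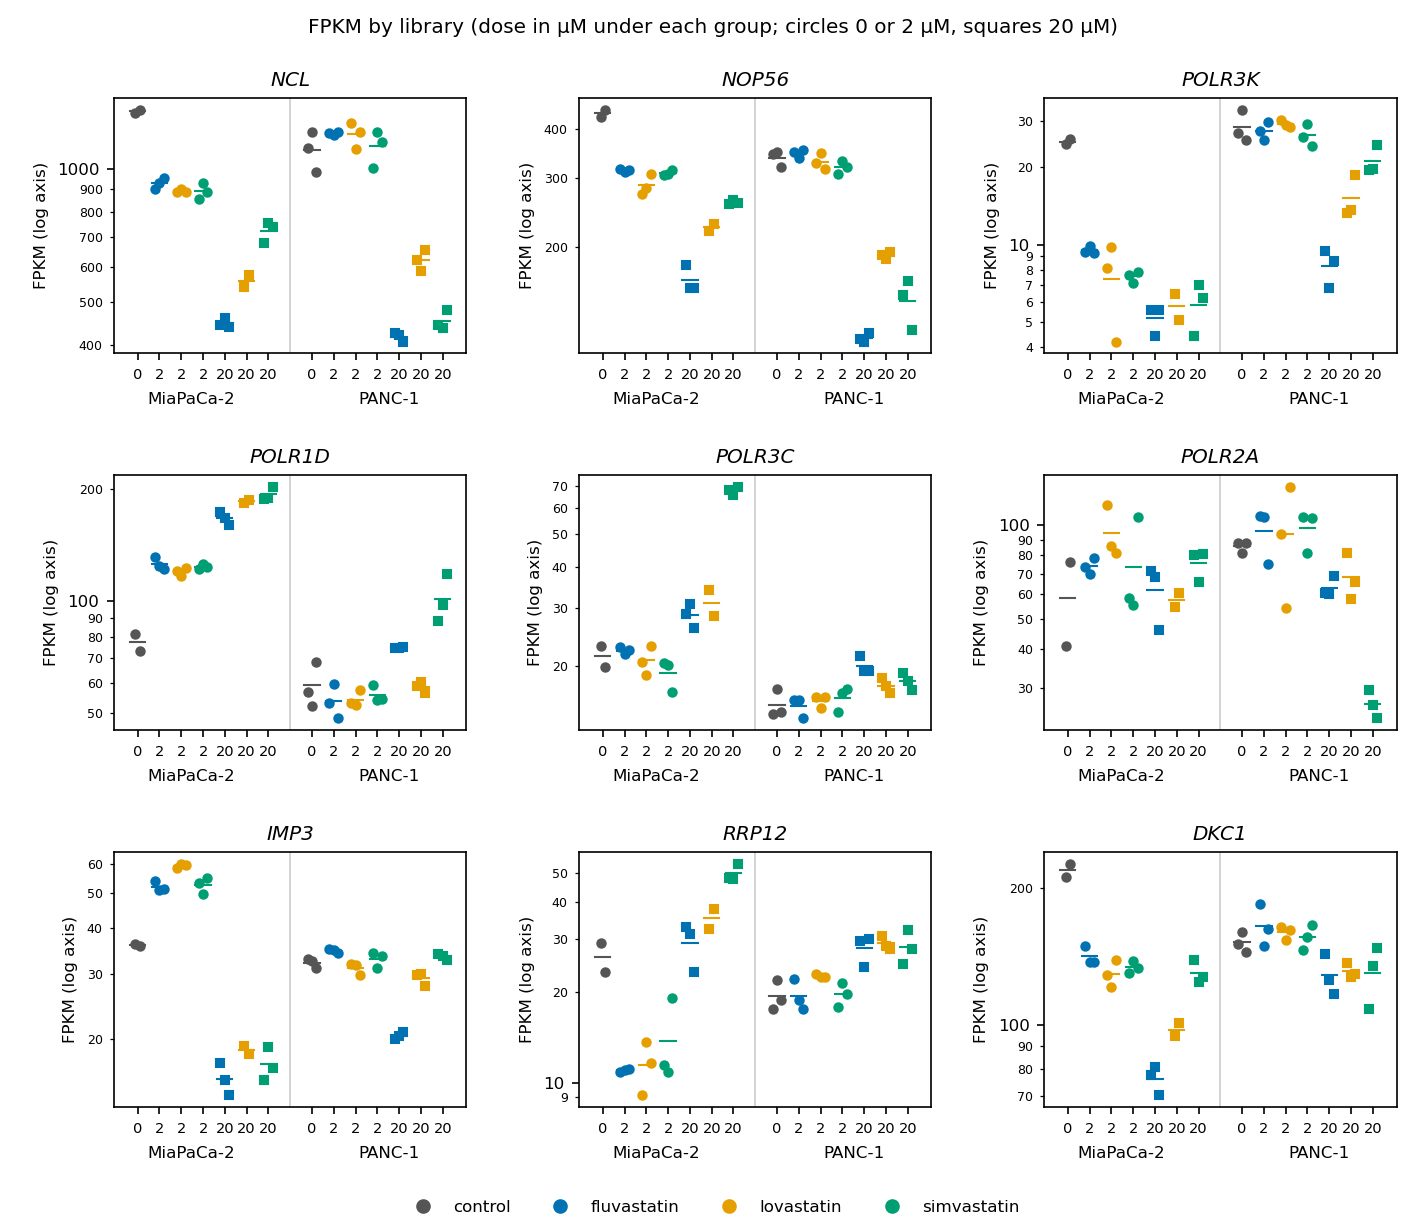
FPKM per library (points, log axis) and group mean (lines) for 9 genes, by line and dose; colours give the statin and squares the 20 µM groups. NCL, NOP56 and POLR3K step down, POLR1D steps up in MiaPaCa-2, IMP3 and RRP12 cross their MiaPaCa-2 control level between the doses, and DKC1 drops far more in MiaPaCa-2 than in PANC-1.

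In 60S assembly, 13 of 14 genes fell with fluvastatin at 20 µM in MiaPaCa-2 and 12 in PANC-1; lovastatin lowered 9 and 7, simvastatin 8 and 9. Fluvastatin lowered 32.5% and 31.0% of all genes tested, lovastatin 30.1% and 22.4%, and simvastatin 33.1% and 30.2%. LAS1L, which works with the nuclease complex that removes the second internal transcribed spacer, was at 49.8 and 51.3 FPKM in the MiaPaCa-2 controls and 16.9, 16.8 and 19.8 with fluvastatin. In PANC-1 it was at 30.1, 28.9 and 31.0 and 13.4, 13.5 and 12.76. Neither pair of groups overlapped, and the differences were -1.46 (SE 0.10, limma adjusted p = 1.69e-09) and -1.12 (SE 0.15, limma adjusted p = 2.64e-06). RRS1, needed to place the 5S particle into the pre-60S subunit, stood at 25.0 and 24.2 FPKM in the MiaPaCa-2 controls, 7.18, 7.57 and 6.67 with fluvastatin at 20 µM and 7.04, 8.29 and 7.79 with simvastatin at 2 µM. The low dose of simvastatin thus gave lower levels than its high dose (16.4, 13.2 and 15.7), with no overlap. The differences from control were -1.56 (SE 0.13, limma adjusted p = 1.28e-07) at 2 µM and -0.68 (SE 0.13, limma adjusted p = 3.24e-04) at 20 µM.

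NOP2, an rRNA cytosine methyltransferase, followed the same course in MiaPaCa-2. It was at 92.7 and 88.6 FPKM in the controls, 42.3, 38.4 and 45.0 with simvastatin at 2 µM and 76.3, 73.1 and 62.5 at 20 µM, while fluvastatin at 20 µM left 31.4, 35.5 and 28.0. Simvastatin libraries at 20 µM sat between the controls and every other treated library of the line. The change from 2 to 20 µM of simvastatin was 0.74 (SE 0.11, limma adjusted p = 2.31e-05). Within the complex that BOP1 and WDR12 form with PES1, WDR12 changed by -1.10 (SE 0.14, limma adjusted p = 4.04e-06) and BOP1 by -0.57 (SE 0.09, limma adjusted p = 5.98e-05) with fluvastatin at 20 µM in MiaPaCa-2. PES1 differed by -0.83 (SE 0.13, limma adjusted p = 4.57e-05) in that comparison and by -0.21 (SE 0.20, limma adjusted p = 0.377) in PANC-1, where it did not pass the test. GNL2, a nucleolar GTPase, was called in none of the 12 comparisons with control, its differences running from -0.47 to 0.43.

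NOL12, which acts at the boundary of 5.8S processing, split the lines with simvastatin. MiaPaCa-2 controls held 13.3 and 12.0 FPKM and simvastatin 20 µM libraries 5.63, 5.14 and 4.57. PANC-1 controls held 13.8, 11.0 and 10.3 and simvastatin libraries 11.6, 10.3 and 14.8. The groups were apart in MiaPaCa-2 but intermixed in PANC-1, and the responses differed by -1.21 (SE 0.25, limma adjusted p = 2.00e-04). NOP16 and RRP15, both pre-60S proteins, changed with fluvastatin in PANC-1 by -1.09 (SE 0.13, limma adjusted p = 1.24e-06) and -1.13 (SE 0.16, limma adjusted p = 7.21e-06). RRP1, which has a paralog in RRP1B, was called with fluvastatin in both lines, at -0.75 in MiaPaCa-2 and -0.54 in PANC-1. GNL3L, a nucleolar GTPase, changed with simvastatin in PANC-1 by -0.93 (SE 0.12, limma adjusted p = 5.21e-06). WDR74, which joins the release of a remodelling ATPase from pre-60S particles, was called in either direction, from -0.39 with fluvastatin to 0.43 with lovastatin in MiaPaCa-2. The first call was lost without the first control (-0.34, adjusted p = 0.0687) and the other without the second lovastatin library (0.37, adjusted p = 0.0613) or the second control. The pair of those statins differed by -0.81 (SE 0.11, limma adjusted p = 9.09e-05).

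Of the Pol I subunits, POLR1E, which helps the enzyme start transcription, fell with each statin at 20 µM in both lines. Its level went from 46.5, 53.1 and 47.2 FPKM in the PANC-1 controls to 31.96, 28.1 and 33.97 with fluvastatin. The groups did not overlap and differed by -0.63 (SE 0.10, limma adjusted p = 2.89e-05). POLR1A, the largest Pol I subunit, varied widely within groups: PANC-1 controls held 19.5, 22.9 and 12.6 FPKM and simvastatin 20 µM libraries 13.3, 3.92 and 4.69, of which the highest lay above the lowest control. Its difference there was -1.35 (SE 0.32, limma adjusted p = 0.00166). POLR1A has a long transcript (12749 bases). Its simvastatin minus lovastatin difference in PANC-1 was -0.76, and -0.41 with the trend with transcript length removed, and neither passed the test. POLR1B, the second largest, was at 31.3, 25.1 and 29.4 FPKM in the PANC-1 controls and 16.1, 14.4 and 16.3 with simvastatin at 20 µM, with no overlap and a difference of -0.83 (SE 0.17, limma adjusted p = 4.49e-04). Its fluvastatin and lovastatin differences, -0.18 and 0.21, did not pass the test.

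POLR1D, a small subunit that Pol I and Pol III share, moved against the rest. MiaPaCa-2 controls held 81.6 and 73.2 FPKM, fluvastatin 131, 124 and 122 at 2 µM and 174, 167 and 160.3 at 20 µM, and simvastatin 189, 189.6 and 203 at 20 µM. The levels rose in steps from control to 2 µM to 20 µM without overlap. The rise at 20 µM was 1.101 (SE 0.06, limma adjusted p = 1.53e-10) with fluvastatin, 1.25 (SE 0.07, limma adjusted p = 1.60e-10) with lovastatin and 1.31 (SE 0.06, limma adjusted p = 1.95e-11) with simvastatin. In PANC-1 the controls held 56.8, 52.2 and 68.5 FPKM, simvastatin 88.0, 97.4 and 118 and lovastatin 59.1, 60.3 and 56.5. Only the simvastatin and fluvastatin libraries lay above every control, and their rises were 0.76 (SE 0.11, limma adjusted p = 9.42e-06) and 0.35 (SE 0.11, limma adjusted p = 0.00914). The latter was lost without the second control (0.26, adjusted p = 0.0571). Its partner POLR1C changed in PANC-1 by -0.92 (SE 0.15, limma adjusted p = 4.14e-05) with fluvastatin and fell there with the other 20 µM groups too. In MiaPaCa-2 it was called against control with fluvastatin at 2 µM, -0.81 (SE 0.25, limma adjusted p = 0.0179), and in no other group. That call was lost without the third fluvastatin 2 µM library (-0.62, adjusted p = 0.0743) and without either control.

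The 5 subunits common to all of the polymerases mostly fell. POLR2E, a subunit near the DNA entry site, differed by -0.57 (SE 0.10, limma adjusted p = 1.08e-04) in MiaPaCa-2 and -0.36 (SE 0.08, limma adjusted p = 6.60e-04) in PANC-1 with simvastatin. POLR2H turned with dose in MiaPaCa-2, like IMP3. It was at 124 and 110.2 FPKM in the controls, 176, 182 and 165 with fluvastatin at 2 µM and 36.7, 42.1 and 42.95 at 20 µM, and these 3 groups were far apart. The differences were 0.57 (SE 0.09, limma adjusted p = 1.41e-04) and -1.50 (SE 0.09, limma adjusted p = 7.28e-10). POLR2L, the smallest shared subunit, had its lowest values with simvastatin in MiaPaCa-2, -1.23 (SE 0.07, limma adjusted p = 1.14e-10), and with fluvastatin in PANC-1, -0.95 (SE 0.09, limma adjusted p = 8.11e-08).

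POLR2F and POLR2K, the remaining shared subunits, differed by -0.57 and -0.94 with fluvastatin at 20 µM in MiaPaCa-2, both called. The POLR2F call was lost without the first control (-0.44, adjusted p = 0.0866). POLR2F was at 69.2, 63.6 and 61.2 FPKM in the PANC-1 controls and 35.2, 43.5 and 45.6 with fluvastatin, with no overlap and a difference of -0.64 (SE 0.13, limma adjusted p = 4.33e-04). POLR2K was called in no PANC-1 group.

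Among the Pol II subunits, POLR2A, the catalytic subunit, stood out in PANC-1. It was at 87.9, 81.7 and 87.7 FPKM in the controls, 29.5, 26.5 and 24.0 with simvastatin at 20 µM, 60.7, 60.1 and 68.6 with fluvastatin and 81.5, 58.1 and 65.6 with lovastatin. All simvastatin libraries lay under all others of the line. The simvastatin difference was -1.65 (SE 0.22, limma adjusted p = 6.69e-06); those of fluvastatin and lovastatin, -0.44 and -0.34, did not pass the test. In MiaPaCa-2 the controls were far apart, at 40.8 and 76.3 FPKM, and no 20 µM group was called. POLR2D, which binds the polymerase as a stalk with its partner POLR2G, fell with each statin at 20 µM in both lines, with differences of -1.11 (SE 0.11, limma adjusted p = 3.40e-07) and -0.78 (SE 0.09, limma adjusted p = 1.05e-06) with fluvastatin. POLR2I, a subunit linked to transcriptional fidelity, rose in MiaPaCa-2, by 0.56 (SE 0.11, limma adjusted p = 6.42e-04) with lovastatin. In PANC-1 it differed by -0.50 (SE 0.09, limma adjusted p = 1.16e-04) with fluvastatin and by 0.44 (SE 0.09, limma adjusted p = 5.41e-04) with simvastatin, the latter 0.25 (adjusted p = 0.0278) with that length trend removed. POLR2C, an assembly subunit, fell with every statin at both doses in MiaPaCa-2, with a fluvastatin difference at 20 µM of -0.70 (SE 0.12, limma adjusted p = 1.20e-04), and in PANC-1 stood at -0.07 in that comparison, which did not pass the test. POLR2J has near-identical copies elsewhere in the genome, so its values are uncertain.

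Pol III subunits split. POLR3K, a small subunit that takes part in termination, had the lowest mean difference from control at 20 µM in MiaPaCa-2. The controls of that line held 24.5 and 25.6 FPKM, fluvastatin 5.59, 4.43 and 5.56, lovastatin 6.46 and 5.11 and simvastatin 4.42, 6.94 and 6.202 at 20 µM. The treated groups overlapped each other and lay far below the controls, at differences of -2.08 (SE 0.23, limma adjusted p = 9.96e-07), -1.95 (SE 0.26, limma adjusted p = 7.78e-06) and -1.94 (SE 0.23, limma adjusted p = 2.26e-06). In PANC-1 the controls held 27.1, 33.2 and 25.5, and fluvastatin, lovastatin and simvastatin left 9.42, 6.77 and 8.64, then 13.3, 13.7 and 18.6, then 19.4, 19.5 and 24.2. There the 3 statins formed ascending bands, and the differences were -1.68 (SE 0.14, limma adjusted p = 9.10e-09), -0.88 (SE 0.14, limma adjusted p = 5.92e-05) and -0.42 (SE 0.14, limma adjusted p = 0.0153). The simvastatin call was lost without the first or second simvastatin library or the second control (-0.31, adjusted p = 0.0864, without that control). POLR3G, a subunit that in human cells is linked to pluripotent and tumour states, fell with all 3 statins in PANC-1, the fluvastatin difference being -1.26 (SE 0.19, limma adjusted p = 1.47e-05).

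POLR3E, a subunit of the same subcomplex as POLR3D, was called in no 20 µM group; its differences there ran from -0.14 to 0.37.

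POLR3C and POLR3D, which belong to subcomplexes of Pol III that act in initiation or termination, rose with every statin at 20 µM in MiaPaCa-2. At 2 µM there POLR3C was called with none, and POLR3D differed by -0.35 (SE 0.12, limma adjusted p = 0.0305) with fluvastatin, -0.34 (SE 0.12, limma adjusted p = 0.0358) with lovastatin and -0.23 (SE 0.12, limma adjusted p = 0.144) with simvastatin, the last not passing the test. Both calls were lost without the first control (-0.26, adjusted p = 0.234, and -0.24, adjusted p = 0.259) or the first or second library of the statin. POLR3C was at 22.99 and 19.9 FPKM in the controls, 68.3, 65.8 and 69.6 with simvastatin at 20 µM, 33.97 and 28.3 with lovastatin and 28.7, 30.8 and 26.2 with fluvastatin. Simvastatin libraries stood well above all others. The rises were 1.62 (SE 0.12, limma adjusted p = 6.30e-09) with simvastatin and 0.51 (SE 0.13, limma adjusted p = 0.00292) with lovastatin. In PANC-1, POLR3C with simvastatin (19.1, 18.0 and 16.9 FPKM) met the control range (14.3, 17.1 and 14.5). The line difference in the simvastatin response was 1.40 (SE 0.14, limma adjusted p = 4.68e-09). POLR3D rose in MiaPaCa-2 by 0.92 (SE 0.12, limma adjusted p = 7.68e-06) with simvastatin at 20 µM and in PANC-1 by 0.83 (SE 0.25, limma adjusted p = 0.0068) with fluvastatin.

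NOL3 had the largest log2 difference from control of the 65 genes, although it is no ribosome factor. MiaPaCa-2 controls held 14.7 and 17.0 FPKM, and at 2 µM fluvastatin gave 143, 136 and 129.5, lovastatin 139, 158 and 149 and simvastatin 150.4, 149 and 150.1. At 20 µM fluvastatin gave 40.2, 42.8 and 34.8 and simvastatin 24.1, 20.1 and 16.1, the latter meeting the control range. The rise with simvastatin was 3.16 (SE 0.13, limma adjusted p = 1.42e-11) at 2 µM and 0.31 (SE 0.13, limma adjusted p = 0.0432) at 20 µM. The 20 µM call was lost without the first or second simvastatin library or the first control (lowest value 0.18, adjusted p = 0.201, without the first simvastatin library). In PANC-1, NOL3 was called in no comparison with control.

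Transcription start windows were searched for a short list of motifs, because the pathway is a textbook target of MYC, which binds the E-box CACGTG. In RefSeq (GRCh38.p14), 50 of the 65 genes had a window, and 8 of these 50 held CACGTG within 250 bases before the first listed start, 16.0% against 7.84% of 15843 protein-coding genes and 9.65% of 6236 protein-coding genes of the table. The ETS-type sequence CCGGAAG on either strand was held by 15 (30.0%) against 16.6% of those genes of the table, and TATAAA on either strand by 1 (2.0%) against 4.94%. CACGTG reads the same on both strands, and none of these motifs contains another. The genes with CACGTG were IMP4, NOL7, NOP10, POLR3A, POLR3C, UTP14A, UTP18 and UTP20. Of the 16 genes that fell with every statin at 20 µM in both lines, UTP20 alone was among them. Any of these 16 without a window could not be searched. The stretches around the site are shown for 4 genes that moved differently: UTP20 fell everywhere at 20 µM, POLR3A fell in MiaPaCa-2, POLR3C rose there, and NOP10 rose in PANC-1 with lovastatin and simvastatin. Capitals mark CACGTG.
UTP20 (GRCh38.p14, chr12:101280068-101280104, plus strand): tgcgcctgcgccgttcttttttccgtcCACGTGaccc
POLR3A (GRCh38.p14, chr10:78029518-78029577, minus strand): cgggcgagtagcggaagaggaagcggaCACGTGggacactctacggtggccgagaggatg
POLR3C (GRCh38.p14, chr1:145823977-145824036, plus strand): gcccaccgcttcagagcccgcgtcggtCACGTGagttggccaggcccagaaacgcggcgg
NOP10 (GRCh38.p14, chr15:34343274-34343333, minus strand): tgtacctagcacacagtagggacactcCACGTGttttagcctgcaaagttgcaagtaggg
The sites shown lie 10, 35, 196 and 170 bases before the start in UTP20, POLR3A, POLR3C and NOP10. NOP10 holds 2 sites within its 250 bases, and only that farther from the start is shown. POLR3A, the largest Pol III subunit, differed by -0.74 (SE 0.19, limma adjusted p = 0.00305) and POLR3C by 0.40 (SE 0.12, limma adjusted p = 0.00769) with fluvastatin at 20 µM in MiaPaCa-2; the latter was lost without the second control (0.30, adjusted p = 0.102). These genes were picked because they moved differently, so their directions are no result about the motif. A match describes letters and not binding, and the part of MYC was not tested.

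The statins were set against each other at equal dose. At 2 µM, limma called 0 of the 65 genes in any of the 3 pairs in either line. Of all genes tested in MiaPaCa-2, 0.0% were called for fluvastatin against lovastatin, 0.562% for fluvastatin against simvastatin and 0.293% for simvastatin against lovastatin. In PANC-1 these shares were 0.0116%, 0.0116% and 0.0%. In each pair 4 to 10 of the 65 had an unadjusted p under 0.05, and the share of all genes at that threshold was not computed. These values do not show that the compounds act alike: for NCL the 95% interval of the simvastatin minus lovastatin difference at 2 µM ran from -0.09 to 0.09 in MiaPaCa-2 and from -0.26 to 0.07 in PANC-1. At 20 µM, fluvastatin left the lowest level of the 3 statins for 47 of 65 genes in each line, and for 36.4% of all MiaPaCa-2 genes and 33.8% of all PANC-1 genes tested. Against simvastatin, which has an unlike ring system, it was lower for 35 genes and higher for 2 in MiaPaCa-2, and lower for 29 and higher for 6 in PANC-1. Of all genes, 28.4% and 23.7% were lower and 27.8% and 23.9% higher. Against lovastatin, fluvastatin was lower for 16 and higher for 1 in MiaPaCa-2 and lower for 26 and higher for 2 in PANC-1, where 12.4% and 16.9% of all genes were lower. The MiaPaCa-2 count was 10 without the second lovastatin library and 7 when only these groups were compared.

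RRP9 gave the largest gap between fluvastatin and simvastatin in MiaPaCa-2, -1.39 (SE 0.11, limma adjusted p = 2.37e-08). NOP2 differed by -1.14 (SE 0.11, limma adjusted p = 3.61e-07) and POLR2H by -1.19 (SE 0.08, limma adjusted p = 6.65e-09) in that pair. In PANC-1 the gap of RRS1 between fluvastatin and lovastatin was -0.95 (SE 0.11, limma adjusted p = 4.23e-06), and that of POLR3K -0.80 (SE 0.14, limma adjusted p = 2.84e-04). POLR3D went the other way, 0.72 (SE 0.25, limma adjusted p = 0.033), a call lost without any 1 of the fluvastatin libraries or the third lovastatin library (0.54, adjusted p = 0.147, without the latter).

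Simvastatin and lovastatin, which differ by the methyl group, were also compared at 20 µM. In MiaPaCa-2, 21 genes (32.3%) were higher with simvastatin and 4 (6.15%) lower, where 17.9% and 19.4% of all genes were. The total called was near that of all genes, and only the split by direction departed from it. The total of 25 was 15 without the first and 14 without the second lovastatin library, and 16 when only these groups were compared. POLR3C differed by 1.11 (SE 0.12, limma adjusted p = 2.72e-06), WDR43 by 0.81 (SE 0.15, limma adjusted p = 5.10e-04) (0.54 without the second lovastatin library) and POLR2L by -0.88 (SE 0.07, limma adjusted p = 4.51e-08). POLR3K did not pass the test, with an interval from -0.49 to 0.50.

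In PANC-1, 13 genes were higher with simvastatin than with lovastatin and 12 lower, against 17.6% and 21.0% of all genes, close to the background. This comparison moved with transcript length. Across the 65 genes, the difference and the log2 length of the longest annotated transcript had r = -0.59 and rho = -0.61, and across 8602 genes r = -0.43 and rho = -0.47 (genes are not independent replicates). The median difference of the 18 shortest of the 65, those up to 1907 bases, was 0.33, and that of the 12 longest, over 4895 bases, was -0.23. All genes in those length bins had medians of 0.27 and -0.28. The 3 simvastatin 20 µM libraries stood apart from every other treated PANC-1 library: over all genes, their differences from the control mean correlated with length at -0.19, -0.18 and -0.14, where the other 15 treated libraries lay between 0.06 and 0.09. The 3 controls, each set against the others, gave 0.06, 0.06 and -0.08. After each library's trend with length was removed, a step chosen after the data were seen, the count was 14 (4 higher, 10 lower) and not 25. The simvastatin libraries also enter the comparison with control, where the 65 genes had r = -0.44 (rho = -0.42), and the count was 5 higher and 38 lower with the trend removed, against 8 and 34 as fitted. The part of RNA quality or library making in this was not tested.

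**Figure D4:**
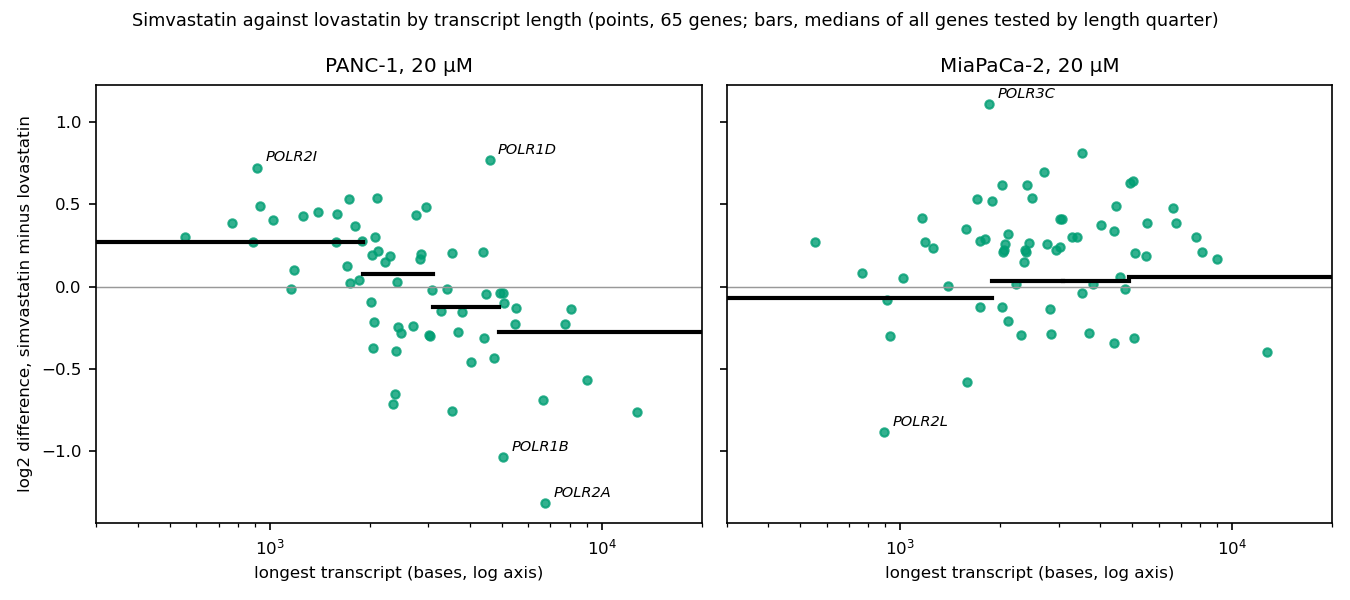
Log2 difference between simvastatin and lovastatin at 20 µM (vertical axis) against the longest annotated transcript (bases, log axis) for the 65 genes (points) in PANC-1 (left) and MiaPaCa-2 (right); black bars are medians of all genes tested in each of 4 length bins of equal gene number. In PANC-1 the points and bars descend with length; in MiaPaCa-2 the bars stay near 0.

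POLR2A (6751 bases) differed between simvastatin and lovastatin in PANC-1 by -1.32 (SE 0.22, limma adjusted p = 2.53e-04) and POLR1B by -1.04 (SE 0.17, limma adjusted p = 1.79e-04). With the length trend removed these were -1.04 (adjusted p = 0.00234) and -0.83 (adjusted p = 0.00155). POLR1D, at 4592 bases not a short transcript, was higher by 0.77 (SE 0.11, limma adjusted p = 4.01e-05), and 0.94 (adjusted p = 9.99e-06) with the trend removed. NOP10 and POLR2L, higher with simvastatin by 0.30 and 0.27, were at -0.03 and -0.02 with the trend removed (adjusted p = 0.816 and 0.898). The POLR2L call was also lost without any 1 lovastatin library or the third simvastatin library (0.21, adjusted p = 0.123, without the latter). RRP36 was not called in that pair, but without the third simvastatin library it was higher by 0.20 (adjusted p = 0.0399).

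The doses of each statin were then compared. In PANC-1 the change from 2 to 20 µM lowered 47, 26 and 28 of the 65 genes with fluvastatin, lovastatin and simvastatin, against 30.9%, 22.7% and 30.9% of all genes. In MiaPaCa-2 it lowered 24, 12 and 11, against 30.4%, 27.9% and 34.4%. It raised 9, 19 and 27 there, against 33.1%, 29.3% and 35.4%. With lovastatin and simvastatin in MiaPaCa-2, 29.2% and 41.5% of the 65 genes were raised, near the shares of all genes. The lowered shares, 18.5% and 16.9%, were below those of all genes. The largest dose difference was that of NOL3, -2.85 (SE 0.11, limma adjusted p = 2.83e-12) with simvastatin. RRP12 had the largest rise, by 1.82 (SE 0.19, limma adjusted p = 3.32e-07) with simvastatin, followed by POLR3C at 1.78 (SE 0.11, limma adjusted p = 3.78e-10).

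Untreated MiaPaCa-2 and PANC-1 cells already differed. Of the 65 genes, 32 were higher in MiaPaCa-2 and 7 in PANC-1, against 35.9% and 28.7% of all 8738 genes. Their median difference was 0.29, that of all genes 0.11. NOP2 was at 92.7 and 88.6 FPKM in MiaPaCa-2 and 37.7, 32.4 and 38.7 in PANC-1, a difference of 1.30 (SE 0.13, limma adjusted p = 6.93e-10). POLR2L, the lowest relative to PANC-1, differed by -1.45 (SE 0.09, limma adjusted p = 6.03e-15), and POLR1E by -0.83 (SE 0.11, limma adjusted p = 1.09e-07). In the test of the line difference itself, 13 genes fell further, or rose less, in MiaPaCa-2 with fluvastatin at 20 µM, and 5 did so in PANC-1. These numbers were 14 and 5 with lovastatin and 12 and 12 with simvastatin. Of all genes, 34.2%, 32.5% and 46.1% differed in either direction, so the shares of the 65 genes (27.7%, 29.2% and 36.9%) were not above the background.

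**Figure D5:**
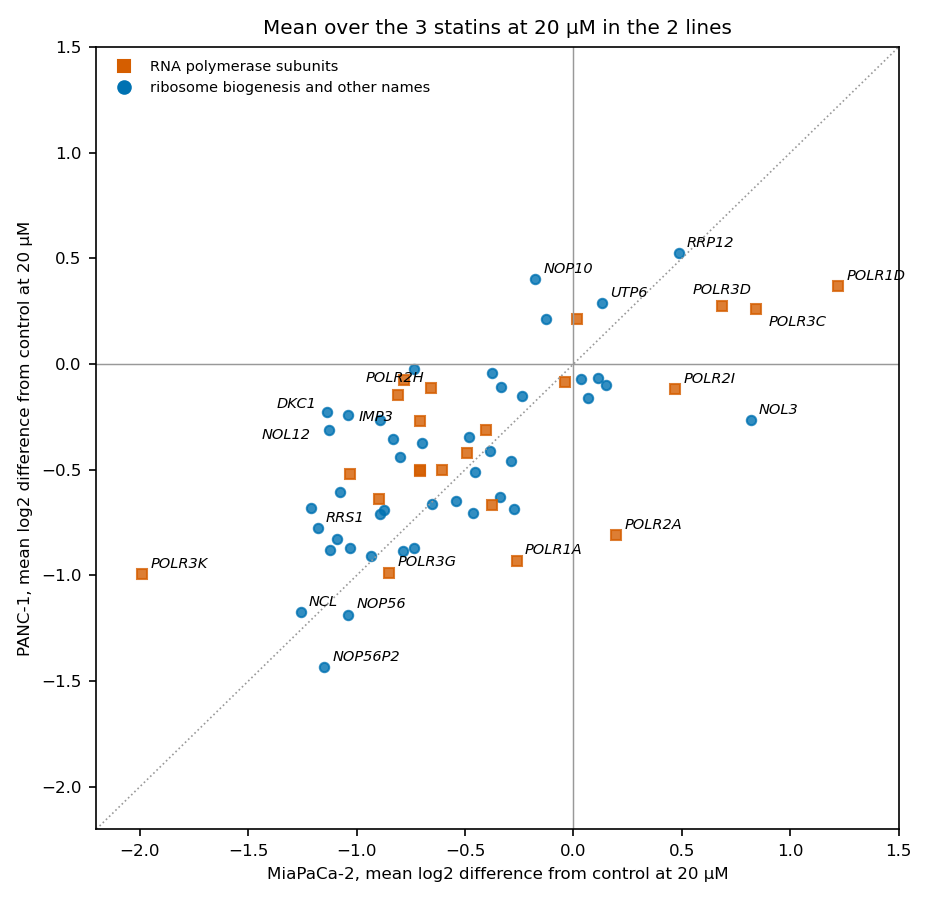
Mean log2 difference from control over the 3 statins at 20 µM in MiaPaCa-2 (horizontal axis) and PANC-1 (vertical axis); squares are polymerase subunits, circles the other genes, and the dotted line marks equal change. Most points lie at the lower left; POLR1D, POLR3C, POLR3D, RRP12 and UTP6 are the labelled genes in the upper right, and POLR2A, POLR2I and NOL3 those in the lower right.

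Genes of the same pathway that the symbol rule does not cover were taken from fixed lists. Averaged over the 3 statins at 20 µM, 21 of 27 large subunit assembly genes fell and 2 rose in MiaPaCa-2, and 17 fell and 2 rose in PANC-1. Of 21 small subunit genes, 16 fell in each line. Of 13 snoRNP and nucleolar partners, 11 fell in MiaPaCa-2 and 9 fell in PANC-1, and 0 rose; in the same averages 33.7% and 31.1% of all genes fell. EBNA1BP2, a 60S factor, differed by -1.98 in MiaPaCa-2 and by -0.86 in PANC-1; the pairs of values that follow are likewise mean log2 differences from control, each called unless marked. RUVBL2, an ATPase of the complex that assembles snoRNPs, differed by -1.47 in MiaPaCa-2 and by -1.39 in PANC-1, and TCOF1, a Pol I cofactor mutated in Treacher Collins syndrome, by -1.48 in MiaPaCa-2 and by -1.11 in PANC-1. LYAR, also of the nucleolus, differed by -1.67 in MiaPaCa-2 and by -1.002 in PANC-1, and NOC2L, a pre-60S export factor, by -1.42 in MiaPaCa-2 and by -0.81 in PANC-1. Among small subunit genes, NAT10, an rRNA acetyltransferase, differed by -1.10 in MiaPaCa-2 and by -0.66 in PANC-1, LTV1, a 40S export factor, by -1.11 in MiaPaCa-2 and by -0.72 in PANC-1, the helicase DHX37 by -0.49 in MiaPaCa-2 and by -0.97 in PANC-1 and the helicase DDX47 by -0.86 in MiaPaCa-2 and by -0.87 in PANC-1. NPM1, nucleophosmin, differed by -0.73 in MiaPaCa-2 and by -0.89 in PANC-1, NOLC1, a snoRNP chaperone, by -1.37 in MiaPaCa-2 and by -0.44 in PANC-1 and RUVBL1 by -1.24 in MiaPaCa-2 and by -0.79 in PANC-1. Of 10 exosome genes, 6 fell in each line and 2 rose in PANC-1. EXOSC2, of the RNA-binding cap, differed by -1.23 in MiaPaCa-2 and by -1.21 in PANC-1. The difference of EXOSC3, also of the cap, was -1.60 in MiaPaCa-2 and -1.05 in PANC-1. The exosome cofactor MPHOSPH6 differed by -1.32 in MiaPaCa-2 and by -0.98 in PANC-1. Of 12 further Pol I and Pol III factors, 9 fell and 2 rose in MiaPaCa-2, and 6 fell and 2 rose in PANC-1; CD3EAP and TWISTNB, now named POLR1G and POLR1F, encode Pol I subunits under older symbols. CD3EAP differed by -0.98 in MiaPaCa-2 and by -1.29 in PANC-1. TWISTNB differed by -0.79 in MiaPaCa-2 and by -0.80 in PANC-1. TAF1D, of the Pol I selectivity factor, differed by 0.88 in MiaPaCa-2 and by 0.39 in PANC-1, and MAF1, the repressor of Pol III, by 0.47 in MiaPaCa-2 and by 0.78 in PANC-1. Of the Pol II general factors, 7 of 16 fell and 1 rose in MiaPaCa-2, and 7 of 15 fell and 3 rose in PANC-1. Their median differences, -0.10 and -0.15, were nearer to those of all genes than the -0.51 and -0.41 of the large subunit list. In these averages 34.1% and 30.8% of all genes rose. GTF2A2, a TFIIA subunit, differed by -1.08 in MiaPaCa-2 and by -0.53 in PANC-1, ERCC2, a TFIIH helicase, by -0.38 in MiaPaCa-2 and by -1.09 in PANC-1 and TCEA1, an elongation factor, by 0.15 in MiaPaCa-2 (not called) and by 0.98 in PANC-1.

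Of MYC and its dimer partners, 6 of 9 rose and 2 fell in MiaPaCa-2, and 4 rose and 1 fell in PANC-1, where 34.1% and 30.8% of all genes rose in the MiaPaCa-2 and PANC-1 averages. MYC was at 100.5 and 100.4 FPKM in the MiaPaCa-2 controls, 173, 169 and 175 with fluvastatin at 20 µM, 206 and 228 with lovastatin and 237, 255 and 230.0 with simvastatin. Every treated library lay above both controls, and the mean rise over the statins was 1.04 (SE 0.06; limma adjusted p = 1.47e-10). In PANC-1 the mean difference was 0.12 (SE 0.09; limma adjusted p = 0.219). MXD1, MXI1 and MNT, which compete with MYC for its partner MAX, were called higher in both lines. MXD1 differed by 1.95 in MiaPaCa-2 and by 1.41 in PANC-1. MXI1 differed by 1.65 in MiaPaCa-2 and by 1.13 in PANC-1. MNT differed by 1.09 in MiaPaCa-2 and by 0.83 in PANC-1. MXD4, of the same family, differed by 1.34 in MiaPaCa-2 and by 0.24 in PANC-1 (not called). MXD3 was lower, differing by -0.75 in MiaPaCa-2 and by -0.89 in PANC-1.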

How the data were processed

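The deposited table held log2-transformed FPKM (fragments per kilobase of transcript, scaled to library size) for 8738 genes in 42 columns. Reads were processed with TopHat2 2.0.13, Cufflinks 1.1 and Cuffdiff on hg19, per the submitters' processing notes. The pseudocount of 1 in the authors' log2 values is inferred from their all lying above 0. In every column at least 97.1% of the values recur in 5 or more columns, so the columns share nearly one distribution and a change common to all genes would not be seen. Depth is unknown.

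Values were analysed as log2(FPKM + 1) with limma 3.58.1 in R 4.3.3 (trend, robust; Benjamini-Hochberg adjustment over all genes tested), each line fitted over its groups and both together for differences between lines, without a replicate block. Genes needed at least 1 FPKM in 3 libraries of the line; all 65 passed. Per-library values are FPKM, back-transformed. The script was tested on simulated data in which 100 genes changed by a log2 of 0.5 and 100 by 1 with fluvastatin at 20 µM. It recovered 49% and 82% of these in MiaPaCa-2 and 43% and 89% in PANC-1. A gene that was not called may therefore still have changed. By rule, the genes named were, per role, the 3 with the largest and the 1 with the smallest mean change at 20 µM, per line the 5 furthest up and down at 20 µM and 3 each way at 2 µM, up to 5 called each way in the other comparisons, and up to 4 per other list and line; further genes were chosen after their values were seen. 1 gene of the set enters the totals and is not reported singly here. The 65 genes, the lists and the comparisons were chosen with earlier results of these data known. Transcript lengths came from GENCODE 29 and promoter windows from RefSeq, both GRCh38; no coordinate was moved between builds. Alternatives were another pseudocount, no filter, quantile normalization, all 42 columns, the compared groups alone, a replicate block, leaving out each library, and removing the trend with transcript length.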

Additional observations from a re-analysis of the deposited data

Results flagged for a closer look

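In the test of the difference itself, the log2 responses of some genes at 20 µM differed between MiaPaCa-2 and PANC-1. The values are MiaPaCa-2 minus PANC-1, from limma with p-values adjusted over all genes, and for each statin they are the 5 furthest apart in each direction. With fluvastatin the response was lower in MiaPaCa-2 by log2 differences of -1.27 for DKC1, -1.14 for POLR2H, -0.83 for RRP9, -0.78 for UTP14C and -0.68 for POLR1B. It was higher there by 1.30 for NOL3, 0.89 for POLR2I, 0.76 for POLR1D, 0.54 for BOP1 and 0.42 for POLR2L, and the largest adjusted p among these genes was 0.031. POLR1B was lost without the second control or second fluvastatin library of either line (-0.48, adjusted p = 0.211, without the second MiaPaCa-2 control), and POLR2L with the compared groups alone (adjusted p = 0.0706). With lovastatin the response was lower in MiaPaCa-2 by log2 differences of -1.07 for POLR3K, -0.98 for RRP36, -0.95 for DKC1, -0.84 for NOL6 and -0.78 for IMP3. It was higher there by 1.48 for NOL3, 1.26 for POLR1D, 0.84 for POLR2I, 0.62 for WDR74 and 0.37 for POLR2J, and the largest adjusted p among these genes was 0.0486. POLR2J was lost without any 1 of 9 libraries (0.31, adjusted p = 0.176, without the second MiaPaCa-2 lovastatin library) and under 5 other settings (adjusted p from 0.0505 to 0.142). WDR74 was lost without that lovastatin library (0.57, adjusted p = 0.0682) or the second MiaPaCa-2 control. With simvastatin the response was lower in MiaPaCa-2 by log2 differences of -1.52 for POLR3K, -1.21 for NOL12, -1.09 for POLR2L, -1.09 for IMP3 and -0.90 for POLR2K. It was higher there by 2.08 for POLR2A, 1.44 for WDR43, 1.40 for POLR3C, 1.04 for POLR3D and 0.65 for WDR75, and the largest adjusted p among these genes was 0.0101. WDR75 was lost without the second MiaPaCa-2 control (0.54, adjusted p = 0.0688). With the trend with transcript length removed, POLR2K was at -0.55 (adjusted p = 0.0652) and no longer called, POLR2L was at -0.72 (adjusted p = 3.45e-05), and the other 8 kept their call and direction. The part of the untreated level of each gene was not tested.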

How the results depend on the processing

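Of 2210 values of single genes, 902 were called. With the replicate number as a block, 35 calls were lost and 16 were gained; the numbers did not pair the libraries (in MiaPaCa-2 the lowest correlation between same-numbered libraries was -0.03, and 4 of 19 libraries correlated best with their own number; in PANC-1 these were -0.09 and 8 of 21). A pseudocount of 0.1 removed 6 calls, no filter 3, quantile normalization 6, the compared groups alone 126 and removing the trend with transcript length, chosen after the data were seen, 70; all 42 columns removed 0 and added 73. The counts of the 65 genes called stayed within 1.5 times, except as follows. With all 42 columns they were 2 (0 as reported) for fluvastatin against simvastatin at 2 µM in MiaPaCa-2, 28 (17) for fluvastatin against lovastatin at 20 µM there, and 29 (19) for the line difference with lovastatin. With the compared groups alone they were 16 (25) for simvastatin against lovastatin and 7 (17) for fluvastatin against lovastatin in MiaPaCa-2, 13 (25) for simvastatin against lovastatin in PANC-1, and 0 (1) for fluvastatin and for lovastatin against control at 2 µM in PANC-1. With the length trend removed, simvastatin against lovastatin in PANC-1 gave 14. Leaving out single libraries gave 14 to 20 for simvastatin and 10 to 15 for fluvastatin against lovastatin in MiaPaCa-2, and 0 to 1 for fluvastatin against simvastatin at 2 µM there and for each statin at 2 µM against control in PANC-1. Directions turned for RRP36 (simvastatin against lovastatin, PANC-1), which ran from -0.14 to 0.20 as single libraries were left out, and, with the length trend removed, for NOP10 (-0.030) and POLR2L (-0.021) in that pair and NOL7 (0.27, adjusted p = 0.0042) for fluvastatin against simvastatin in PANC-1; the cause was not tested beyond the trend itself. No setting moved the median of all genes by more than 0.0287 (log2). Because the columns share nearly one distribution, this median and the calls under quantile normalization had little room to move.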
